A study of Mus musculus with 4 samples.

Results

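The Runx transcription factors and the proteins that work with them were measured by 11 probes of 6 genes. These were all the probes whose gene name on the array is *Runx1*, *Runx2*, *Runx3*, *Cbfb*, *Runx1t1* or *Cbfa2t3*, among 39429 probes for 31896 gene names in all. RNA came from cultures begun with Lin- fetal liver cells of mice that carry no intact copy of *Ebf1* (Ebf1-/-). *Ebf1* encodes a transcription factor that B cell development requires. Lin- means that the starting cells, before infection and culture, lacked the markers of mature blood lineages. The cells were infected with an empty virus (EMPTY, 2 arrays) or with a virus that carries *Mir195* (Mir195, 2 arrays), so the controls lack *Ebf1* as well. Both were cultured with SCF, IL-7 and Flt3 ligand at 10 ng/mL each. According to the methods, cells of this kind grow on OP9 stroma and the *Mir195* segment was amplified from a human leukaemia line, so the inserted precursor is not the mouse one. The comparison asked which genes differ once *Mir195* is supplied in place of EBF1.

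RUNX1, RUNX2 and RUNX3 bind DNA through the Runt domain and recognise the motif TGTGGT or TGCGGT. CBFβ, encoded by *Cbfb*, does not bind DNA itself but strengthens the binding of all Runx proteins. RUNX1 is required for definitive blood stem cells and for early B cells, RUNX3 acts mainly in T and NK cells, and RUNX2 is best known as the master regulator of bone formation. *Runx1t1* and *Cbfa2t3* encode the ETO proteins ETO and ETO2, corepressors without a DNA-binding domain of their own that bring histone deacetylases to DNA-bound factors. ETO was identified as the partner of RUNX1 in a leukaemia fusion protein, and ETO2 belongs to the complex of TAL1, LMO2 and LDB1 in blood progenitors. *Cbfa2t2* encodes the remaining paralogue of this family.

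The mature strand of mouse miR-195a is shown because a miRNA finds its targets through its seed, bases 2 to 8, here in capitals (sequences from RefSeq, GRCm38.p6). The same seed occurs in 11 entries of 1738 mature mouse entries, among them the relatives below, which the cells can carry on their own.
mmu-miR-195a-5p: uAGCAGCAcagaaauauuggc
mmu-miR-497a-5p: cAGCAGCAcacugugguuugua
mmu-miR-15a-5p: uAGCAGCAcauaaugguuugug
mmu-miR-16-5p: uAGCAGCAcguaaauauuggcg
The strand of miR-195a lies at chr11:70235062-70235082 on the plus strand. Among the 6 genes, the study lists *Cbfa2t3* alone as a predicted mouse target. The base complement of the seed was searched in the 60-base probes, and among the members it occurred in that of *Runx1t1* alone, against 0.804% of all 39429 probes.

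The promoters of the 3 Runx genes share a run of letters that holds the Runx motif itself. The longest run that occurs in a window of each gene, from 250 bases before to 50 after the transcript start, is 18 bases long. It is printed in capitals in its surroundings on the strand of the gene, and it reads TGTGGT at 2 places on the other strand (as ACCACA).
*Runx1*: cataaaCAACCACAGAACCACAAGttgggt
*Runx2*: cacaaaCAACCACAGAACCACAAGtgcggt
*Runx3*: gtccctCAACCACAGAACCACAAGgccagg
These stretches lie at chr16:92826025-92826054 (minus strand), chr17:44814583-44814612 (minus strand) and chr4:135120503-135120532 (plus strand) of GRCm38.p6. The run lies 27 to 44 bases after the start of *Runx1* and 22 to 39 after that of *Runx2*, but at positions -136 to -119, before the start, in *Runx3*. Over 32851 windows of all genes it occurs in 4, the remaining one being that of *Gm16225*, which overlaps the window of *Runx3* on the other strand. In each case the window is that of the distal promoter, the outer one of the alternative promoters of Runx genes. For TGTGGT on either strand, 16.8% of all windows hold at least 1 match and 1.81% at least 2, and *Runx1* held 2, *Runx2* 3 and *Runx3* 2 in these windows. The shared run by itself gives each of them 2 matches, so these counts add nothing to the run for *Runx1* and *Runx3*. The *Runx2* window also held 1 TGCGGT, a motif that cannot match at the same place as TGTGGT and that 6.45% of windows hold. Of the remaining 5 windows of member genes, 4 held neither motif and 1, of *Cbfa2t3*, held 1 TGCGGT. These matches describe the letters and do not show binding in these cells.

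Of the 11 probes, 9 could be compared, for *Runx1*, *Runx2*, *Runx3* and *Cbfa2t3*, and 0 passed an adjusted p of 0.05 in limma (0.530 to 0.988), against 0% of the 23731 probes tested over the array. At an unadjusted p under 0.05 there were 2 of 9 and, over the array, 1979. The probe of *Runx1t1* rose well above background on no array and that of *Cbfb* had an outlier spot on one array, so neither was tested. Log2 fold changes of Mir195 over EMPTY were above 0 for 7 of the 9 probes (53% of all probes tested) and below 0 for 2 (5 of 9 above 0 when arrays were scaled by their median, 9 of 9 with the percentile over probes detected on all arrays), with a median of 0.14 against 0.01 over all tested probes. For 6 probes, the lower Mir195 array exceeded the higher EMPTY array, all of *Runx1*, *Runx2* or *Cbfa2t3* (23.4% of all probes tested), and the reverse held for 0 (14.4%). The remaining 3 overlapped.

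Each value below is the log2 of the spot signal less the 75th percentile of its array, so that 0 is the signal at that percentile. Probes differ in how brightly they report a transcript, so levels are compared between arrays and not between probes. With 2 arrays per virus an exact two-sided permutation test gives no p under 0.333. All arrays shared a slide, with each virus at one end of it, so that position and virus cannot be told apart. In such bulk RNA, fewer cells of a type and less RNA per cell cannot be told apart either. Nothing in the labels says that replicates came from separate animals, so the spread may be technical.

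**Figure D1:**
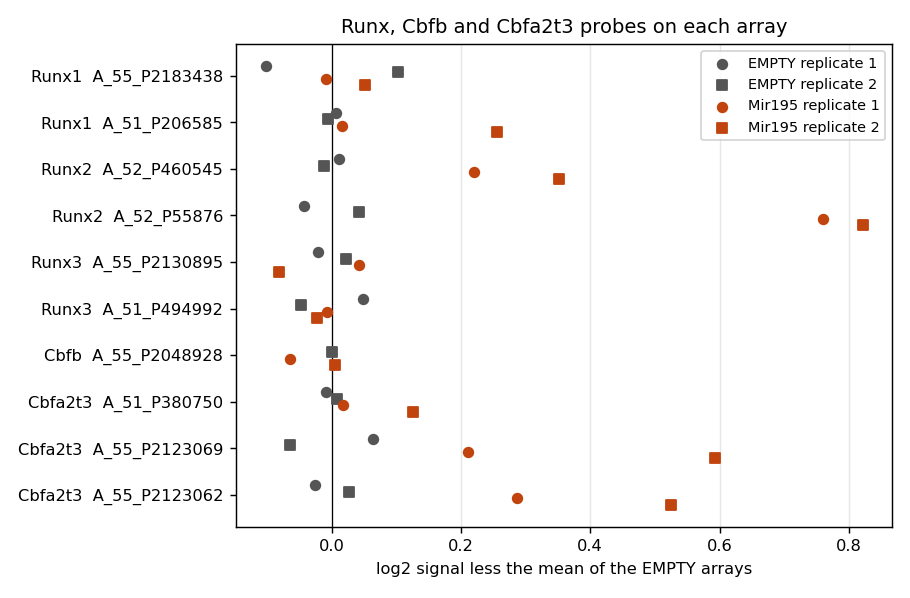
Log2 signal of each probe on each array, less the mean of the EMPTY arrays, for the 9 tested probes and for *Cbfb*, which lacks EMPTY replicate 1 and is set to 0 at EMPTY replicate 2 (grey, EMPTY; orange, Mir195; circle and square, replicates 1 and 2). Both *Runx2* probes and the 2 dimmer *Cbfa2t3* probes lie to the right with Mir195, and the 2 *Runx3* probes lie around 0.

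*Runx2* showed the largest difference among the members. The array holds 2 probes under its name, both of which reach into the coding part. The first, A_52_P55876, starts just before the start codon (capitals) of the isoform made from the distal promoter, the one whose window is printed above, and its 48 bases from that codon on read as follows.
*Runx2* A_52_P55876: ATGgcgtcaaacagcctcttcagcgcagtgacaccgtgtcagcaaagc
The second, A_52_P460545, lies near the end of the coding sequence, which the isoforms of both promoters share. These places are background knowledge of the gene, since no annotation used here maps the probes to isoforms, and the names distal and shared probe rest on it.
*Runx2* A_52_P460545: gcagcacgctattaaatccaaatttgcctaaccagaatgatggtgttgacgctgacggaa
The distal probe measured -4.94 and -4.86 with EMPTY and -4.14 and -4.08 with Mir195. Both Mir195 arrays stood clear of the EMPTY arrays, by more than the replicates differed. The log2 fold change was 0.79 (SE, the standard error, 0.12, 1.73-fold), with an unadjusted p of 0.00139 and an adjusted p of 0.530 by limma. The shared probe measured -0.98 and -1.01 with EMPTY and -0.77 and -0.64 with Mir195, again without overlap. Its log2 fold change was 0.29 (SE 0.12, adjusted p = 0.639), or 0.19 when arrays were scaled by their median.

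The distal probe was dim, and this limits its value. Its mean spot intensity was 96.3 and 93.1 with EMPTY and 107 and 111 with Mir195, where the local background was 38 to 48. As a ratio to that background it was 2.44 and 2.27 with EMPTY and 2.82 and 2.31 with Mir195, so that on this scale the viruses overlapped. The local background of 48 was that of Mir195 replicate 2. The signal used here subtracts a fitted background surface instead. As a ratio to that surface the spots stood at 1.53 and 1.52 with EMPTY and 1.76 and 1.80 with Mir195, without overlap. With normexp background correction the log2 fold change was 0.48 (adjusted p = 0.272). In the authors' own table of log2 values the distal probe stood at -5.25 and -4.83 with EMPTY and at -4.30 and -4.01 with Mir195, a difference of 0.89. The distal probe less the shared probe was -3.96 and -3.85 with EMPTY and -3.37 and -3.43 with Mir195. The difference between the viruses in this measure was 0.50, with an exact two-sided permutation p of 0.333, the smallest that 4 arrays allow. It depended on the background correction, since with normexp the distal and shared probes stood closer together, at 0.48 and 0.25. A further probe, A_65_P18181, carries a transcript name and no gene name but is described as *Runx2*. It measured -1.74 and -1.70 with EMPTY and -1.69 and -1.59 with Mir195, a log2 fold change of 0.08 (adjusted p = 0.922). The study names *Runx2* from these same arrays, so its direction here is not independent evidence.

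**Figure D2:**
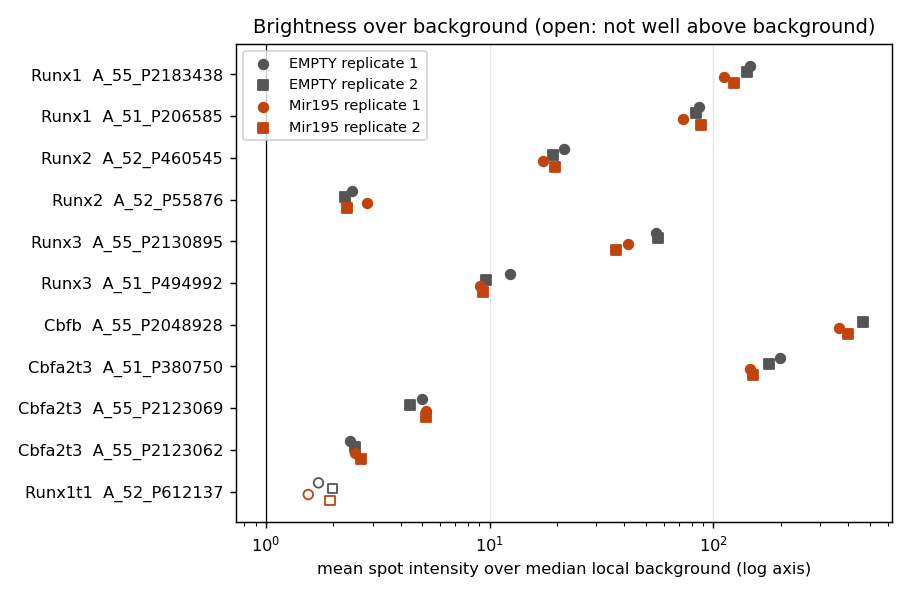
Mean spot intensity divided by the median of its local background (log axis) for all 11 probes on each array, with open symbols where the spot was not well above background. The distal *Runx2* probe (A_52_P55876) lies at 2.27 to 2.82 and its arrays intermingle, whereas the shared probe (A_52_P460545) lies at 17.4 to 21.4.

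OP9 cells are bone marrow stroma, and mesenchymal cells can express *Runx2*, so their markers were read beside it. Of 18 stroma markers, 11 were well above background on all arrays and 6 on none (*Pdgfra*, *Dcn*, *Lum*, *Postn*, *Cdh11* and *Twist1*). The summed signal of the list, in units of the 75th percentile, was 12.8 and 13.7 with EMPTY and 12.1 and 22.5 with Mir195, so 1 array, Mir195 replicate 2, stood above the rest. *Cxcl12*, the stromal chemokine, measured 0.40 and 0.48 with EMPTY and 0.34 and 1.35 with Mir195, and *Sparc*, a matrix protein, 2.51 and 2.63 against 2.47 and 3.41. *Adipoq*, an adipocyte hormone, was -5.22 and -4.87 with EMPTY and -5.30 and -5.55 with Mir195. *Fabp4*, an adipocyte fatty acid carrier, was between -4.40 and -4.29 on all arrays. Without Mir195 replicate 2, the log2 fold change of the distal *Runx2* probe was 0.76 and that of the shared probe 0.22, and the median of the stroma list was -0.18 in place of 0.22. On Mir195 replicate 1, whose summed stroma signal was 12.1, both *Runx2* probes lay above both EMPTY values. The part of stroma cells in the *Runx2* values was not tested.

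*Runx1* differed little between the viruses. Its probe A_55_P2183438 measured 2.36 and 2.57 with EMPTY and 2.46 and 2.52 with Mir195. Both Mir195 values fell between the EMPTY values, and the log2 fold change was 0.02 (95% interval -0.33 to 0.37, adjusted p = 0.985). The probe A_51_P206585 measured 1.69 and 1.68 with EMPTY and 1.70 and 1.94 with Mir195. Its log2 fold change of 0.14 (SE 0.14, adjusted p = 0.889) rested on 1 array, since the value became 0.02 when Mir195 replicate 2 was left out and 0.26 when replicate 1 was, and it was 0.04 when arrays were scaled by their median. The study lists *Runx1* among genes near chromatin sites that both EBF1 and *Mir195* open, which concerns accessibility and not the amount of RNA measured here.

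*Runx3* showed no difference beyond the spread between its arrays. The probe A_55_P2130895 measured 0.89 and 0.94 with EMPTY and 0.96 and 0.83 with Mir195. The probe A_51_P494992 measured -1.53 and -1.63 with EMPTY and -1.59 and -1.60 with Mir195. On both probes the viruses overlapped, and the log2 fold change was -0.02 on each, with 95% intervals of -0.34 to 0.30 and of -0.32 to 0.29. Its sign depended on the scaling, being 0.00 and 0.01 where the 75th percentile was taken over probes detected on all arrays and -0.12 and -0.11 where arrays were scaled by their median.

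*Cbfb* has 1 probe, A_55_P2048928, whose spot on EMPTY replicate 1 the scanner software marked as non-uniform. On the remaining arrays it measured 4.43 with EMPTY and 4.37 and 4.44 with Mir195, with spots brighter than their background by 362 to 464 times. A fit on these 3 arrays, chosen after the data were seen, has a single EMPTY array, which is assumed to vary like the Mir195 arrays. It gave a log2 fold change of -0.03 (SE 0.16, adjusted p = 0.983). With the marked spot kept, the EMPTY values were 4.41 and 4.42 and the log2 fold change -0.02. In the authors' table, which holds a value for that array too, the difference was 0.04, so its direction is not settled.

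*Cbfa2t3* has 3 probes, and on all 3 the lower Mir195 array exceeded the higher EMPTY array. The bright probe, A_51_P380750, measured 2.75 and 2.77 with EMPTY and 2.78 and 2.89 with Mir195, a log2 fold change of 0.07 (SE 0.12, adjusted p = 0.934). Its direction turned to -0.03 when arrays were scaled by their median and to -0.01 in the authors' table. The probe A_55_P2123069 measured -3.12 and -3.25 with EMPTY and -2.98 and -2.59 with Mir195, a log2 fold change of 0.40 (SE 0.17, adjusted p = 0.647) that was 0.21 without Mir195 replicate 2. The probe A_55_P2123062 measured -5.09 and -5.04 with EMPTY and -4.78 and -4.54 with Mir195, a log2 fold change of 0.41 (SE 0.14, unadjusted p = 0.0344, adjusted p = 0.558) that was 0.23 in the authors' table. The larger differences thus came from the dimmer probes, whose spots were 4.42 to 5.20 and 2.38 to 2.68 times as bright as their background, against 146 to 198 for the bright probe. In the scaling used here, 0 of the 3 probes was lower with the miRNA that is predicted to target this gene. The lower ends of their 95% intervals were -0.24, -0.05 and 0.05 in the order given.

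The other ETO genes were measured by 1 probe each. *Runx1t1*, probe A_52_P612137, rose well above background on no array, with spots at most 1.98 times as bright as their background, so that no fold is given. *Cbfa2t2* measured 1.62 and 1.64 with EMPTY and 1.69 and 1.79 with Mir195, a log2 fold change of 0.11 (SE 0.12, adjusted p = 0.892). *Ebf1* itself, the disrupted gene, measured 2.01 and 1.89 with EMPTY and 1.85 and 2.03 with Mir195, a log2 fold change of -0.01 (adjusted p = 0.995). Where its probe lies relative to the disrupted part is not known here, so this value does not check the genotype.

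**Figure D3:**
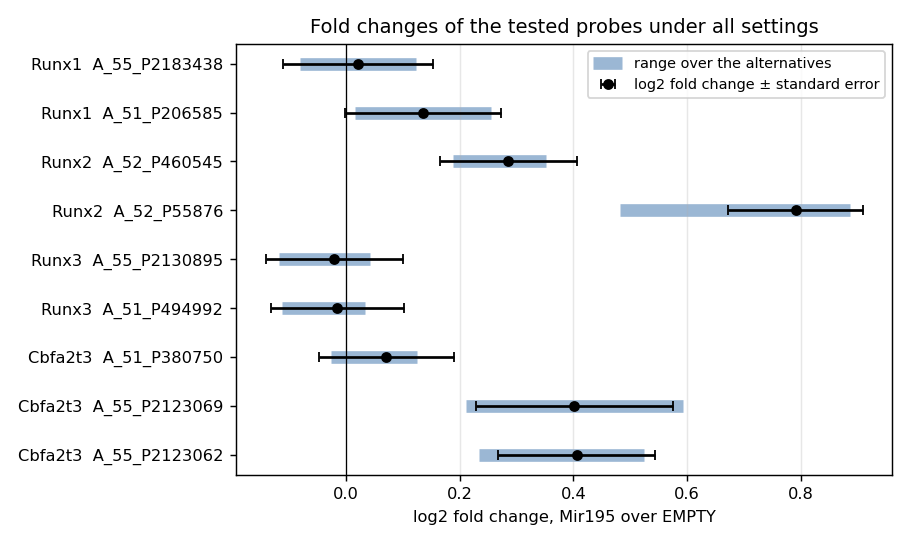
Log2 fold change of Mir195 over EMPTY for the 9 tested probes (points, with the limma standard error as bars) and the range of the same value over all alternative settings (blue bands). Of the 9 bands, those of both *Runx2* probes, of the 2 dimmer *Cbfa2t3* probes and of *Runx1* A_51_P206585 stay above 0, and the others cross it.

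Probes of 1 gene gave unequal fold changes to different degrees. The highest less the lowest log2 fold change was 0.50 for *Runx2*, 0.33 for *Cbfa2t3*, 0.11 for *Runx1* and 0.01 for *Runx3*. This range grows with the number of probes, so each member was read beside genes with as many. *Runx1*, *Runx2* and *Runx3* have 2 tested probes, and over 3307 such genes the median was 0.10 and the quartiles 0.05 and 0.21. *Runx2* lay above the upper quartile, *Runx1* near the median and *Runx3* below the lower quartile. With normexp the 2 *Runx2* probes stood closer together, at 0.48 and 0.25, and quartiles were not taken in that setting. *Cbfa2t3* has 3, and over 531 such genes the median was 0.20 and the quartiles 0.11 and 0.37, so that its range lay below the upper quartile. The probes of a gene differed in direction in 30.5% of genes with 2 tested probes and in 51.2% of genes with 3. Those of the 4 members did not in the scaling used here, although scaling by the median turned 1 probe each of *Runx1* and *Cbfa2t3*. With normexp the probes differed in direction for *Runx1* (0.128 and -0.011) and *Runx3* (0.030 and -0.035). In the authors' table they did so for *Cbfa2t3*, and leaving out single arrays turned probes of *Runx1* or *Runx3*.

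**Figure D4:**
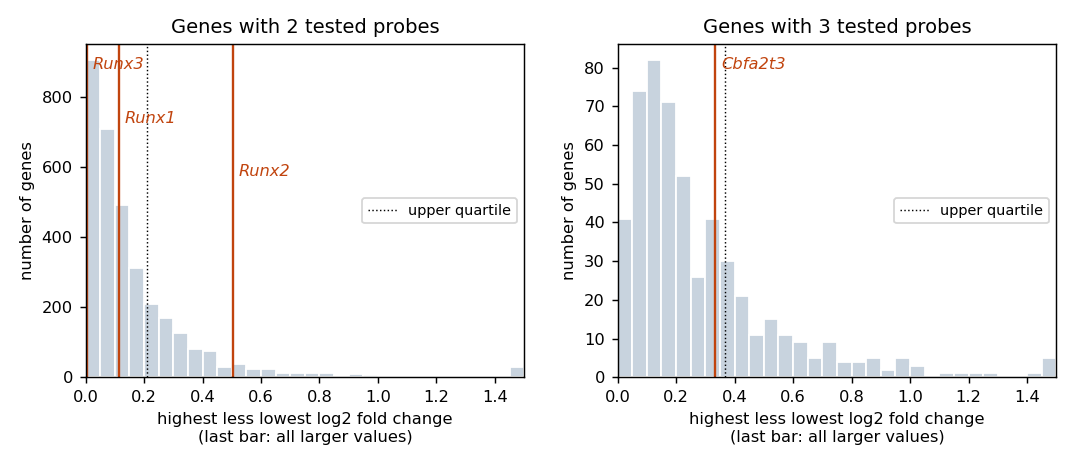
Number of genes by the difference between the highest and lowest log2 fold change of their tested probes, for 3307 genes with 2 tested probes (left) and 531 with 3 (right), with the members as orange lines and the upper quartile dotted. *Runx2* (0.50) lies above the upper quartile of 0.21 on the left, and *Cbfa2t3* (0.33) lies below that of 0.37 on the right.

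The genes of the proteins that Runx factors recruit differed little as a group. Of 25 cofactors, 24 were tested, 13 were higher and 11 lower with Mir195, and 0 passed the threshold, with a median log2 fold change of 0.01 (0.01 over all tested genes). *Suv39h1*, a histone methyltransferase that represses transcription, measured -0.32 and -0.26 with EMPTY and 0.06 and -0.09 with Mir195, a log2 fold change of 0.28 (adjusted p = 0.664). *Tle2*, a Groucho corepressor, followed at 0.25 with overlapping arrays. At the other end, *Ep300*, a histone acetyltransferase and coactivator, measured -1.22 and -1.37 with EMPTY and -1.48 and -1.43 with Mir195, a log2 fold change of -0.16 (adjusted p = 0.838). *Aes*, a short Groucho-related protein, stood at -0.11 with overlapping arrays.

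Among the factors that ETO proteins work with, 12 of 14 were tested, 5 were higher and 7 lower, and 0 passed the threshold (median -0.03). *Tal1*, the factor at the centre of the ETO2 complex, measured -3.88 and -3.51 with EMPTY and -3.27 and -3.23 with Mir195, a log2 fold change of 0.45 (SE 0.17, adjusted p = 0.584). *Gata1*, the erythroid factor, had 0.37 with overlapping arrays. *Zbtb16*, a zinc finger repressor of innate lymphocytes, measured -1.08 and -0.79 with EMPTY and -1.13 and -1.56 with Mir195, a log2 fold change of -0.41 (adjusted p = 0.702). *Tcf12*, an E protein that ETO proteins can bind, measured 0.84 and 0.94 with EMPTY and 0.73 and 0.45 with Mir195, a log2 fold change of -0.30 (adjusted p = 0.715). *Gata2* rose well above background on no array.

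**Figure D5:**
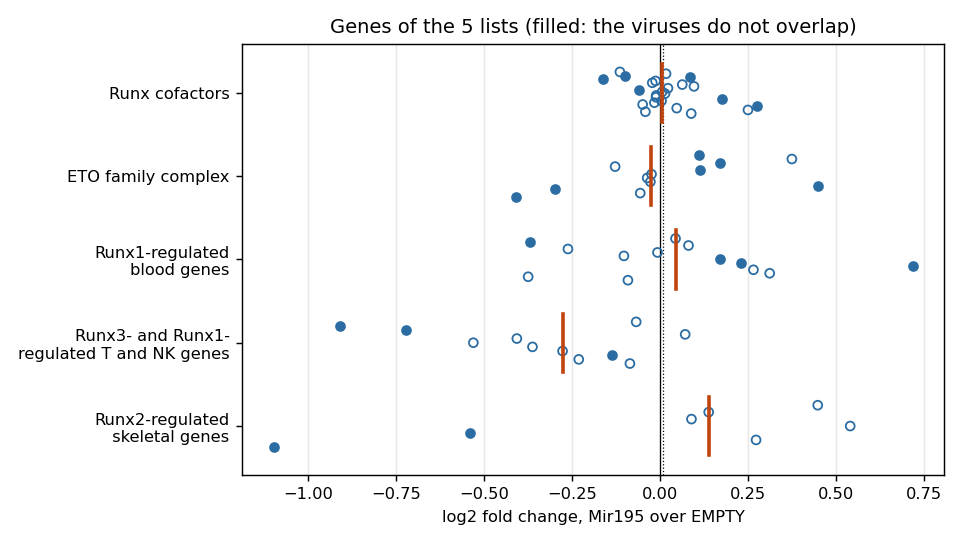
Log2 fold change of Mir195 over EMPTY for each tested gene of 5 lists (filled points, the arrays of the viruses do not overlap), with the median of each list (orange bar) and that of all tested genes (dotted line, 0.01). The T and NK genes have a median of -0.28, with 10 of 11 points below 0, and the other 4 lists have medians of -0.03 to 0.14.

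Genes that Runx factors are known to regulate were read by the lineage in which they do so. In 13 tested genes of 15 under RUNX1 in blood cells, 7 were higher and 6 lower, with a median of 0.04 and 0 past the threshold. *Mpo*, the myeloid peroxidase, measured 0.22 and 0.83 with EMPTY and 1.35 and 1.15 with Mir195, a log2 fold change of 0.72 (SE 0.24, adjusted p = 0.556). *Pf4*, a platelet chemokine, was next at 0.31, and *Prkcq*, a kinase of T cells, and *Csf2*, the cytokine GM-CSF, were at the lower end with -0.37 and -0.26, each with overlapping arrays. Of the 11 genes of T and NK cells under RUNX3 or RUNX1, all were tested, 10 were lower and 1 higher, and 0 passed the threshold. Their median log2 fold change was -0.28, which became 0.03 without EMPTY replicate 1 and -0.78 without EMPTY replicate 2. *Cd8a*, the coreceptor whose enhancer RUNX3 binds, measured -3.42 and -3.39 with EMPTY and -4.35 and -4.28 with Mir195. The arrays of the viruses did not overlap, with a log2 fold change of -0.91 (SE 0.12, adjusted p = 0.530). With Mir195 its signal was about as low as that of the distal *Runx2* probe (-4.14 and -4.08), so dimness limits this value too. The array holds 2 probes of *Cd8a*, and only the brightest tested one is given. *Eomes*, a T-box factor of cytotoxic cells, measured -0.35 and -1.21 with EMPTY and -1.66 and -1.35 with Mir195, a log2 fold change of -0.72 (adjusted p = 0.659). *Gzmb*, a cytotoxic granule protease, measured 1.48 and -0.23 with EMPTY and 0.59 and 0.81 with Mir195, and *Cd4* had -0.07. Markers of T and NK cells were read beside these genes. The NK markers *Ncr1*, *Prf1* and *Gzmb* are also in the gene list, so the NK sum is not a separate reading. The summed signal of 5 NK markers was 4.93 and 2.09 with EMPTY and 2.77 and 3.24 with Mir195, and that of 5 T markers 3.28 and 2.65 against 2.22 and 2.36, with all of both lists well above background on every array. The part of these cells in the gene values was not tested.

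In the list of skeletal genes under RUNX2, 7 of 12 were tested, 5 were higher and 2 lower with a median of 0.14, and 0 passed the threshold. The skeletal genes *Ibsp*, *Alpl* and *Col10a1* rose well above background on no array. *Tnfsf11*, the osteoclast factor RANKL, which lymphocytes make too, measured -1.45 and -1.78 with EMPTY and -2.65 and -2.77 with Mir195, a log2 fold change of -1.10 (SE 0.16, adjusted p = 0.530). *Bglap2*, an osteocalcin gene, measured -3.77 and -3.71 with EMPTY and -3.87 and -2.71 with Mir195, and *Spp1*, osteopontin, -2.50 and -3.08 against -3.13 and -1.90. *Col1a2*, a collagen chain, measured 0.50 and 0.45 with EMPTY and 0.12 and 1.0 with Mir195. In these 3 genes the highest array was Mir195 replicate 2, the one with the highest stroma markers, and without it the median of the list was -0.34. *Col1a1* and *Col1a2* belong to the stroma marker list as well, so for them this is not a separate reading. The part of stroma cells in these skeletal gene values was not tested.

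Other lineages in the culture were read for the same reason. Their marker lists share *Mpo*, *Elane*, *Csf1r*, *Pf4* and *Cd79a* with the list of genes under RUNX1. Among the B markers, *Cd79b*, a part of the B cell receptor, measured -1.18 and -0.96 with EMPTY and -0.26 and 0.49 with Mir195, a log2 fold change of 1.18 (adjusted p = 0.530). The summed signal of the B markers was 13.3 on each EMPTY array, against 12.7 and 13.5 with Mir195, and that of 6 myeloid markers 12.9 and 14.9 against 14.9 and 15. That of 5 megakaryocyte markers, 3 of them well above background on all arrays, was 0.33 and 0.39 with EMPTY and 0.44 and 0.40 with Mir195. The mast cell and basophil list, with 1 of 4 markers well above background on all arrays, was lower with Mir195, at 0.28 and 0.30 against 0.21 and 0.15. The erythroid list, with 1 of 5 such markers, gave 0.26 and 0.19 with EMPTY and 0.18 and 0.09 with Mir195.

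The genes whose pattern over the 4 arrays was most like that of the brightest probe of each member were found among 18071 probes of named genes well above background on all arrays (18070 for *Cbfa2t3*). Likeness was the root mean square difference of log2 values after each probe was centred on its mean. For *Runx1* these were *Brd2* (0.0081) and *Sppl2b* (0.0098), for *Runx2* *4933427D06Rik* (0.0044) and *Thnsl1* (0.010), for *Runx3* *Pot1b* (0.0052) and *Cyb5b* (0.0054), and for *Cbfa2t3* *Yipf5* (0.0021) and *Styx* (0.0036). With 4 arrays such likeness is common. Within 0.05 of the pattern there were 262 probes for *Runx2*, 558 for *Runx1*, 1319 for *Cbfa2t3* and 2105 for *Runx3*.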

How the data were processed

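Total RNA (about 100 ng) was labelled with a single dye on 4 Agilent mouse arrays, 2 per virus, grouped by their titles. For each spot the authors deposited the intensity of the scanner software (Agilent Feature Extraction 11.5.1.1, per the submitters' processing notes). In all spots checked it equalled the mean signal less a fitted background surface, divided by a spatial factor. The check left out spots with a surrogate value and the dimmest of the others. A small surrogate value stood in 19.4% to 22.1% of spots. A second file that the authors deposited holds log2 values normalized to the 75th percentile, which correlated with the values used here at r = 0.998 on each array.

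The log2 intensity of the spots of a probe was averaged without outlier spots (21 to 65 per array), and the 75th percentile of the array was subtracted. No spot was saturated, and 23658 to 24671 probes per array were well above background. A probe entered the test where both replicates of either virus were well above background (23801 probes), unless no spot remained on an array (70 probes). The test was that of limma (lmFit and eBayes, version 3.58.1, in R 4.3.3 with data.table, version 1.17.8). It was two-sided, with Benjamini-Hochberg adjustment over all 23731 probes and a threshold of 0.05. It was also run on simulated data with independent noise in each probe, so effects shared by the probes of an array were not covered. The number of arrays limits the precision. Lists were described by counts and medians, with each gene represented by its brightest tested probe. Symbols came from accessions in GRCm38.p6 for 26055 probes and otherwise from the array.

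The members and lists were chosen with earlier results of these data known. The named genes are all members, *Ebf1*, *Cbfa2t2*, the 2 largest rises and falls in each list among genes well above background on all arrays, and the 2 genes most like each member. Others were named after their values were seen. Alternatives were normexp background correction (offset 50), quantile normalization, median scaling, the percentile over detected probes, the authors' table, other filters, eBayes with trend and robust estimation, a replicate block, each array left out, outlier spots kept and the methods' t-test. Protein sequences and 3′ UTRs were not analysed here. The values of some genes under the naming rule are not reported here.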

Additional observations from a re-analysis of the deposited data

How the results depend on the processing

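Of the 9 member probes, 0 passed the threshold under any alternative of the limma fit. The lowest adjusted p was 0.0575, for the distal *Runx2* probe without Mir195 replicate 1. Under the other alternatives that of this probe was 0.174 or more. The methods' t-test at its own unadjusted threshold passed 1 member probe, the distal *Runx2* probe, and 1134 probes in all, and 0 of either after Benjamini-Hochberg adjustment. Over all probes the limma fit made 3 calls with median scaling and 0 to 904 with 1 array left out (904 without Mir195 replicate 1, 3 without Mir195 replicate 2). With the replicate block it made 5 calls over all probes and 0 among the members. The labels do not say that a number marks a shared culture, and the deviations of the arrays with the same number correlated at -0.101. The sign of values near 0 depended on the setting. With normexp, *Runx3* A_51_P494992 was at 0.030, *Runx1* A_55_P2183438 at -0.011 and *Ebf1* at 0.0080. With median scaling, *Cbfa2t3* A_51_P380750 was at -0.027, *Runx1* A_55_P2183438 at -0.077 and the probe A_65_P18181 at -0.018. With the percentile over detected probes, the *Runx3* probes were at 0.0063 and 0.0011 and *Ebf1* at 0.015, and *Ebf1* was at 0.013 with quantile normalization. In the authors' table, *Cbfa2t3* A_51_P380750 was at -0.0064 and the *Runx3* probes at 0.015 and 0.00074. With 1 array left out, the *Runx3* probes spanned -0.063 to 0.033 and -0.082 to 0.042, *Runx1* A_55_P2183438 -0.081 to 0.123 and *Ebf1* -0.096 to 0.083. The cause of these changes of sign was not tested. The other 130 of 144 alternative values of member probes kept their direction. This count overstates the agreement. The other filters, eBayes with trend and robust estimation and the replicate block leave the log2 fold change itself unchanged. For these settings the direction was thus fixed in advance, and so it was for the fit on the remaining arrays. Among the alternative medians of the 13 lists, 168 stayed within the spread between replicates and 27 moved by more, and with median scaling the cofactors stood at -0.09, the ETO list at -0.12 and the blood genes at -0.05.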
